A study of Mus musculus with 6 samples.

Results

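The genes described here are 10 components of Activin, inhibin and Nodal signalling: the ligand subunit genes Inhbb, Inhba and Nodal, the antagonist genes Lefty1, Lefty2 and Fst, and the co-receptor and receptor genes Tdgf1, Acvr1b, Acvr2a and Acvr2b. They were chosen by pathway role with results of these same arrays already known, above all the fall of Inhbb, so the comparison of their levels between the groups is a description and carries no test of its own. They had 18 probe sets with 1 gene symbol among the 45037 non-control probe sets of the array, and all 10 genes, of 18193 genes on the array, had at least 1 probe set bright enough to be tested. A further probe set shared by Acvr2a and Orc4 was left out.

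Total RNA came from mouse embryonic stem cells of the R1 line and was hybridised to 6 Affymetrix mouse whole-genome arrays, in which each transcript is read by sets of short probes. All cells had been infected with a lentivirus that expressed a short hairpin RNA (shRNA) and had been sorted for GFP. The control group carried an shRNA against luciferase, a gene absent from mouse cells, on 3 arrays, and the other group carried shRNA1 against KIAA1718 on 3 arrays. KIAA1718 is the histone demethylase encoded by Kdm7a. There was a single hairpin for each group, so reduced KIAA1718, any action of that hairpin on other transcripts and any difference between the sorted populations cannot be told apart. No label says that the arrays of a group came from separate infections or cultures, and the spread between them may be technical.

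Activins are dimers of inhibin beta subunits, encoded by Inhba and Inhbb; joined to the alpha subunit encoded by Inha, the same beta subunits form inhibins, which oppose activins. Activins bind the type II receptors encoded by Acvr2a and Acvr2b, which activate the type I receptor encoded by Acvr1b, and this in turn phosphorylates SMAD2 and SMAD3. Nodal uses the same receptors together with the co-receptor Cripto, the product of Tdgf1. Lefty1 and Lefty2, themselves induced by the pathway, block Nodal, and follistatin, the product of Fst, sequesters activins. Mouse embryonic stem cells express Nodal, Cripto and the Lefty genes, and in the epiblast the pathway is needed to maintain pluripotency and to form mesoderm and endoderm.

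The promoters of the beta subunit genes are shown because one of these genes differed greatly between the groups and the other did not, and that of Tdgf1 because it held the most motif matches. Each line gives the 250 bases before the start site, 5' to 3', from RefSeq (build GRCm38.p6), with motif matches in capitals; 7 of the 10 genes had an entry. The motifs searched on both strands were the SMAD box CAGAC, the FOXH1 motif AATNNACA, the ESRRB motif TCAAGGTCA and the TATA box TATAAA, and no matches of different motifs overlapped.
Inhbb, chr1:119422249-119422498, minus strand: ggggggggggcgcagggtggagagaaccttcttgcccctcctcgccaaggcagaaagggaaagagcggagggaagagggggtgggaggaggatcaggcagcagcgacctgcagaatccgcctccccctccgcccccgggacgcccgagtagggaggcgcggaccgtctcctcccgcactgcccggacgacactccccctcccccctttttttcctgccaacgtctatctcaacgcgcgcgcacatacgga
Inhba, chr13:16011601-16011850, plus strand: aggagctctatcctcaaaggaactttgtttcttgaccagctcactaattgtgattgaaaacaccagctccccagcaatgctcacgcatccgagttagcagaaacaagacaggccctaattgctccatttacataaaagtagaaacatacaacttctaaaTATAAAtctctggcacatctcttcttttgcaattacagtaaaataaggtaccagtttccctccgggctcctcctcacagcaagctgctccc
Tdgf1, chr9:110946159-110946408, minus strand: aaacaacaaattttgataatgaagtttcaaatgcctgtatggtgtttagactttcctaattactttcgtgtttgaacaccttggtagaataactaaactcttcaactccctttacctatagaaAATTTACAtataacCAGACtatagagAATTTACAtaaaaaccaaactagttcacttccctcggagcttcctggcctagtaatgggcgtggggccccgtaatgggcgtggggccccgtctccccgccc

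The Inhbb window was 68.0% G and C with 21 CpG dinucleotides, against 43.2% and 3 for Inhba; the median over 32851 windows of the same length was 52.4% and 6. None of the 4 motifs matched in the Inhbb window, and a TATA box match lay 91 bases before the start used for Inhba. That start lies inside the annotated Inhba gene, which begins at chr13:16004256, so the window precedes a later start of the gene. In the Tdgf1 window, FOXH1 matches lay 127 and 101 bases before the start, with a SMAD box between them at 113. A SMAD box was found for 3 of the 7 genes (Tdgf1, Acvr2a and Acvr2b) and in 42.2% of all windows. The other shares were 10.9% for FOXH1, 0.387% for ESRRB and 12.4% for the TATA box, and no ESRRB match lay in the 7 windows. These matches are letters in a window and were not tied to binding in these cells.

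The median signal per array ran from 9.58 to 13.3, so the arrays were quantile normalized before comparison. All 10 markers of embryonic stem cells had signal on every array, the lowest being 198, and their summed signal was 11116 to 13302 in controls and 10855 to 12033 with the KIAA1718 shRNA. Of these markers, Utf1 and Fgf4 fell with the KIAA1718 shRNA, and the remaining 8 did not pass; with the replicate number as a block Nanog, at -0.42, passed as well. The brightest probe set of the targeted gene, Kdm7a, had a signal of 33.3, 31.2 and 44.9 on the control arrays and 40.9, 23.8 and 34.9 on the KIAA1718 shRNA arrays, and did not pass (limma adjusted p = 0.534). The labels therefore had no check through the target.

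Inhbb was lower on every array with the KIAA1718 shRNA. Its brightest probe set, 1426858_at, had a deposited signal of 330.2, 397 and 589.6 in controls and of 109.6, 87.2 and 135 with the KIAA1718 shRNA, or 439 ± 135 and 111 ± 23.9 (SD, n = 3). The groups lay far apart: the highest value with the KIAA1718 shRNA was below the lowest control. After normalization, with 16 added to each signal before taking log2, the difference was -1.96 ± 0.15 (log2, SE), which is 3.89-fold lower on that scale. It was the largest decrease among the 12741 genes tested, which is how the gene came to be considered. Between arrays of the same replicate number the difference was -1.57, -2.27 and -2.05. In bulk RNA, fewer cells that express a gene and less RNA per cell cannot be told apart.

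The other Inhbb probe set, 1426859_at, was dimmer, with signals of 34.6, 23.3 and 53.0 in controls and 15.1, 14.8 and 17.5 with the KIAA1718 shRNA. Its groups did not overlap either, and the difference was -0.79 ± 0.15. Because its signals lay near the added constant, the size depended on it, at -1.13 with 4 added and -0.37 with 64. Both probe sets were lower with the KIAA1718 shRNA. The difference of the dimmer one no longer passed without control replicate 3 (-0.67), KIAA1718 shRNA replicate 2 (-0.77) or KIAA1718 shRNA replicate 3 (-0.79).

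Inhba, the gene of the other beta subunit, had no such difference. Its signals were 112, 185 and 186 in controls and 99.1, 165 and 195 with the KIAA1718 shRNA, and the difference of -0.21 had a 95% interval of -0.67 to 0.24. The low value in each group was on the array numbered 1. A further probe set of Inhba, 1458291_at, had signals of 0.260 to 1.08 on all arrays and was too dim to be tested. No test of Inhbb against Inhba was made, since their probe sets differ and the pair was chosen with its values known.

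Nodal differed little between the groups. Its brightest probe set had signals of 359.8, 296 and 394 in controls and 352, 387 and 396 with the KIAA1718 shRNA, and the groups overlapped. The difference was -0.02, with an interval of -0.22 to 0.19. The other Nodal probe set gave 0.05, with an interval of -0.29 to 0.39, from signals of 70.0 to 110.0 in controls and 90.3 to 129 with the KIAA1718 shRNA. Each changed sign in 2 of 14 other settings.

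**Figure D1:**
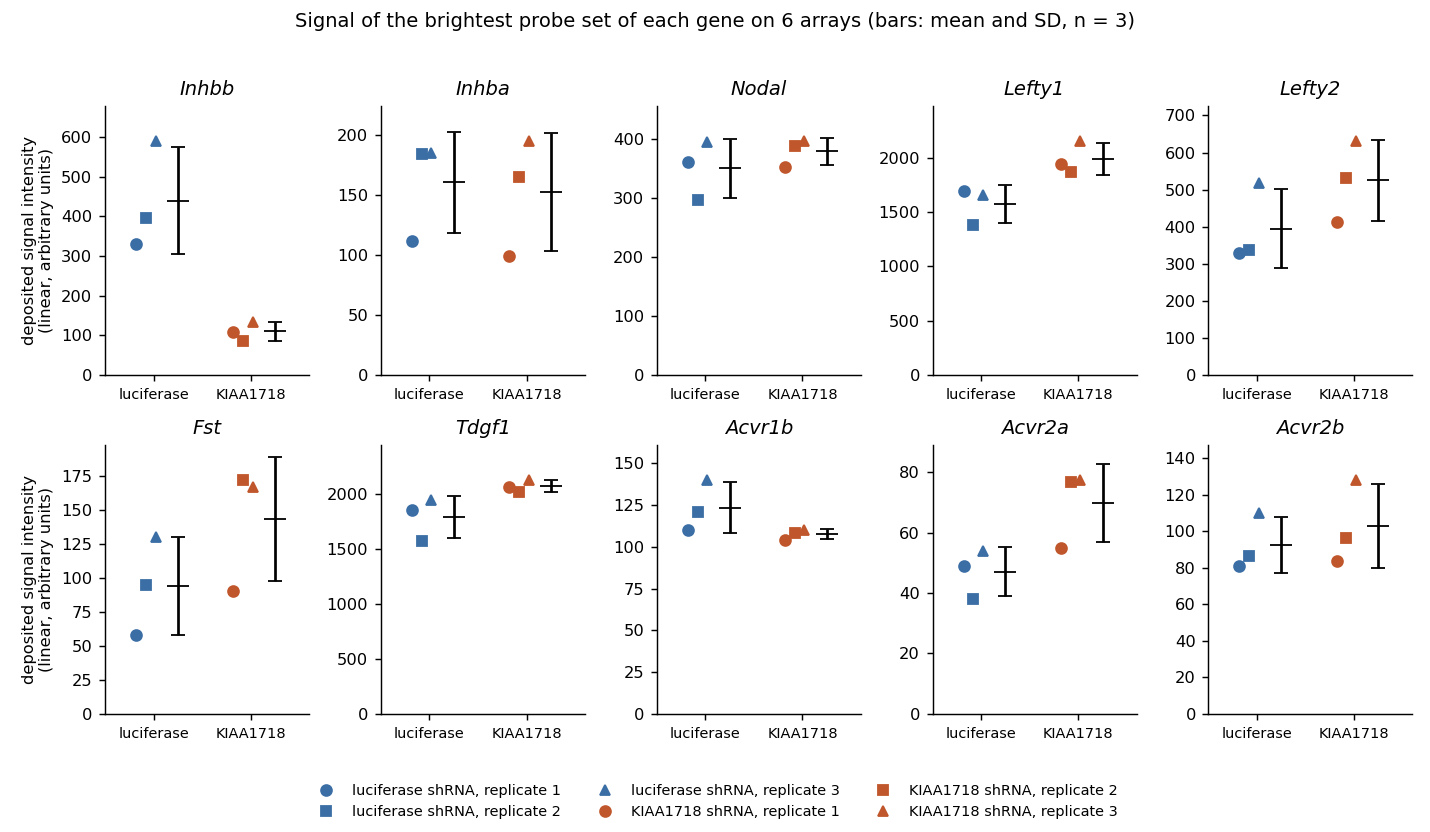
Deposited signal (linear, arbitrary units, not scaled between arrays) of the brightest probe set of each of the 10 genes on the 6 arrays; the point shape gives the replicate number and bars give the mean and SD of 3 arrays. Inhbb at 87.2 to 135 with the KIAA1718 shRNA lies well below the controls at 330.2 to 589.6, while the groups are close or overlap for the other genes.

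The antagonist genes had small positive differences. Lefty1, a bright probe set, had signals of 1696, 1377 and 1660.0 in controls and 1947, 1870.4 and 2153 with the KIAA1718 shRNA. The groups did not overlap, and the difference was 0.24 ± 0.07, with values of 0.14, 0.25 and 0.34 between arrays of the same number. Lefty2 had signals of 329, 338 and 517 in controls and 413, 532 and 631 with the KIAA1718 shRNA. Those ranges overlapped, and the difference of 0.27 had an interval of -0.01 to 0.55. Lefty2 was nevertheless higher in each of the 3 pairs of equal number, by 0.20, 0.33 and 0.27.

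Fst, whose product binds activins, had a positive difference with a wide interval. Its brightest probe set, 1434458_at, had signals of 57.8, 94.5 and 130.2 in controls and 90.4, 172 and 167 with the KIAA1718 shRNA, and the groups overlapped. The difference was 0.41, with an interval of -0.06 to 0.89, and leaving out 1 array moved it to between 0.19 (without control replicate 1) and 0.63. The other Fst probe set, 1421365_at, had signals of 35.2, 40.2 and 91.8 in controls and 64.9, 88.4 and 122 with the KIAA1718 shRNA, and a difference of 0.53 with an interval of 0.09 to 0.98. On both probe sets the array numbered 1 was the lowest of its group, and within pairs of equal number the KIAA1718 shRNA array was the higher one each time, by 0.32 to 0.50 and by 0.36 to 0.69.

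Tdgf1, the co-receptor gene, had bright and nearly level signals, of 1851, 1571 and 1943 in controls and 2063, 2017 and 2127 with the KIAA1718 shRNA. The groups did not overlap, but the difference was only 0.12, with an interval of -0.01 to 0.25. Acvr1b, the type I receptor gene, had signals of 110.0, 121 and 140.1 in controls and 104, 108 and 110.3 with the KIAA1718 shRNA. Its difference was -0.29, with an interval of -0.55 to -0.04; the deposited signals overlapped slightly and the normalized values did not. Its dimmer probe set had signals of 7.58 to 14.0 and gave -0.13, with an interval of -0.45 to 0.20.

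The 4 tested probe sets of the type II receptor genes lay above 0, and 3 of them by little. The brightest probe set of Acvr2a, 1437382_at, had signals of 49.0, 38.0 and 54.0 in controls and 55.0, 76.8 and 77.4 with the KIAA1718 shRNA, with a difference of 0.33 and an interval of 0.04 to 0.63. The second Acvr2a probe set, 1451004_at, gave 0.04, with an interval of -0.24 to 0.32, from signals of 37.5, 44.6 and 48.4 and of 42.2, 51.5 and 55.7. The probe sets of this gene therefore gave different sizes. Acvr2b had signals of 80.8, 86.3 and 110.0 in controls and 83.7, 96.4 and 128 with the KIAA1718 shRNA, with a difference of 0.01 and an interval of -0.27 to 0.28. Its second tested probe set gave 0.04, and the third, 1440525_at, had signals of 0.589 to 2.35 and was not tested.

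**Figure D2:**
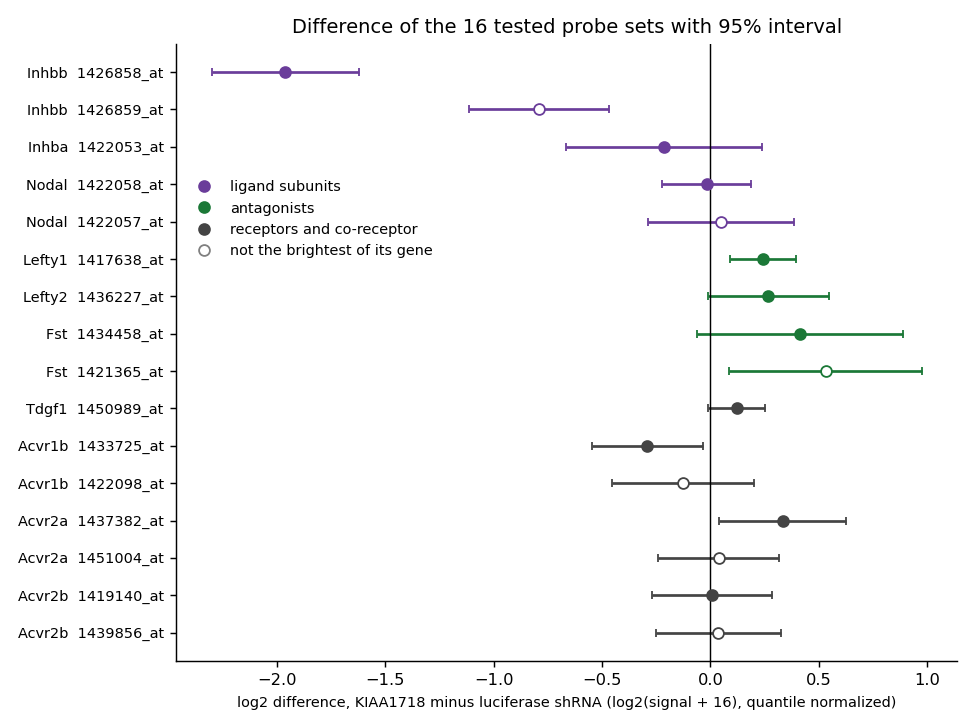
Difference between KIAA1718 and luciferase shRNA arrays (log2(signal + 16), quantile normalized) for the 16 tested probe sets, with 95% intervals; colours give the role and open points are dimmer probe sets of the same gene. Both Inhbb probe sets lie below 0, at -1.96 and -0.79, and the other 14 lie between -0.29 and 0.53.

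In the limma fit over all probe sets, adjusted by Benjamini-Hochberg with a threshold of 0.05, 1 of the 10 genes passed, Inhbb, which was lower. Over all genes tested 4.80% passed, 2.17% lower and 2.64% higher. With the replicate number as a block 2 of the 10 passed, Inhbb lower and Lefty1 higher, against 7.89% of all genes. The normalized values of the groups did not overlap for 5 of the 10 genes (Inhbb, Lefty1, Tdgf1, Acvr1b and Acvr2a), and for 27.9% of all genes. The median difference over the 10 genes was 0.06 and 6 of the 10 lay above 0, against a median of 0.00 and 50.0% of all genes. Because this contrast was known when the genes were picked, nothing is read from these counts.

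Markers of fibroblasts, cells often used as feeders for embryonic stem cells, differed between the arrays. Their 15 genes all had signal, and their mean level, as normalized log2, in the controls was 7.29 for replicate 1, 8.05 for replicate 2 and 8.04 for replicate 3. With the KIAA1718 shRNA it was 7.10, 7.42 and 7.52 in the same order. Their summed signal was 4389 to 8724 in controls and 4336 to 6675 with the KIAA1718 shRNA. None of the 15 passed in limma, and 4 had an unadjusted p under 0.05. With the replicate number as a block 7 passed. All 15 differences lay below 0, with a median of -0.35. Those of all 10 embryonic stem cell markers did too, with a median of -0.19, and 5 of the 10 had an unadjusted p under 0.05 (limma). The share of all genes at that level is not given here, so nothing is read from the unadjusted counts. Arrays numbered 1 were the lowest in each group for the mean of the fibroblast markers, for Inhba and for both Fst probe sets. Some single markers differed from their mean. With the KIAA1718 shRNA, Thy1, Dcn and Twist1 were highest on replicate 1 and Col1a1 was lowest on replicate 2. In controls Twist1 was lowest on replicate 2. The cells had been sorted for GFP, and no label says whether feeder cells were used. The part of fibroblast RNA in the levels of Inhba and Fst was not tested.

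The normalized level of Inhbb was 8.56, 8.92 and 9.11 in controls, where the array numbered 1 was again the lowest, and 6.99, 6.65 and 7.06 with the KIAA1718 shRNA, where it was not. At each replicate number Inhbb and the fibroblast marker mean were both lower with the KIAA1718 shRNA. The part of fibroblast RNA in the level of Inhbb was not tested. Markers of primitive endoderm, the extraembryonic layer beside the epiblast, were also lower with the KIAA1718 shRNA. The differences of all 11 were negative. Of the 11, 5 passed and fell (Sox7, Dab2, Lama1, Lamc1 and Pdgfra) and none rose, beside the 2.17% of all genes that passed lower. Gata6, Gata4, Sox17, Lamb1, Col4a1 and Col4a2 did not pass, with Lamb1 at -0.04. Sox7 and Pdgfra were dim, with signals of 10.3 to 49.8 and of 3.73 to 23.1. So were Gata6 (9.79 to 30.1), Gata4 (8.45 to 15.6) and Sox17 (13.8 to 21.6). The summed signal of the 11 was 1350.4 to 2002 in controls and 1258 to 1431 with the KIAA1718 shRNA. None of the 11 had a signal of 0 on any array. Whether primitive endoderm cells were present, and their part in the level of Inhbb, was not tested.

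**Figure D3:**
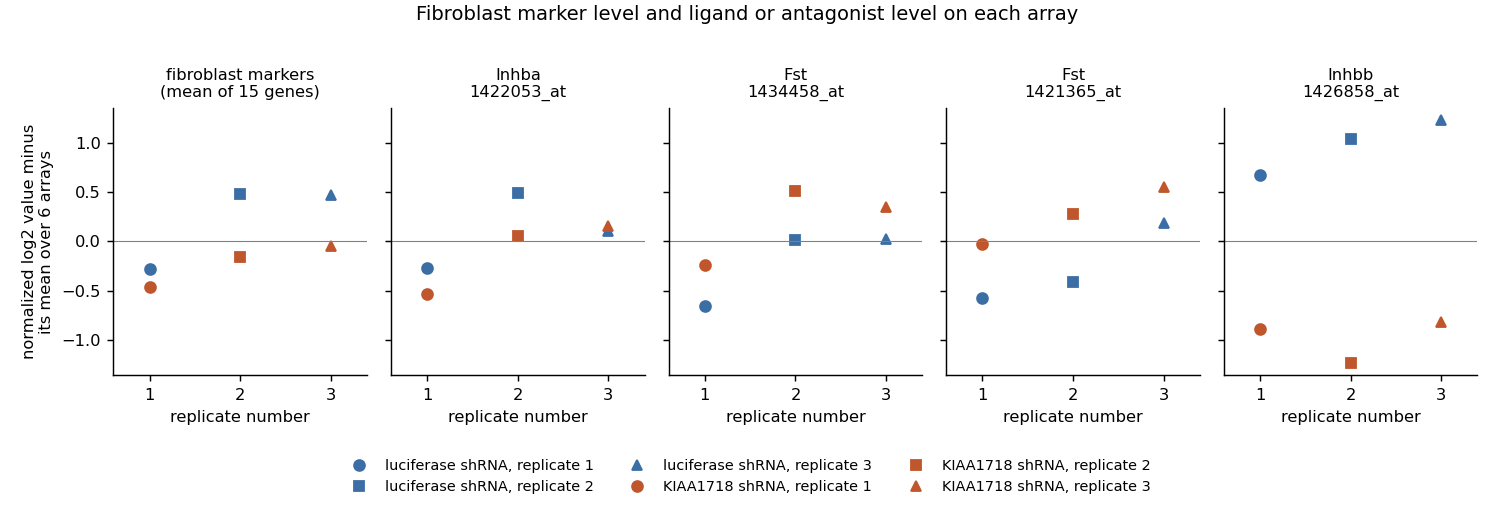
Normalized log2 level on each array minus its mean over the 6 arrays, for the mean of 15 fibroblast markers, Inhba, both Fst probe sets and Inhbb, by replicate number and group. The fibroblast marker mean, Inhba and Fst are lowest on replicate 1 of each group. Inhbb separates by group, with controls above its mean and the KIAA1718 shRNA arrays below it. The fibroblast marker mean is also lower with the KIAA1718 shRNA at each replicate number, and its part in the level of Inhbb was not tested.

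Of 50 other genes of the pathway, 39 had a tested probe set, and 3 fell, none rose and 36 did not pass, beside the 4.80% of all genes that passed and the 2.17% that passed lower. Of the 39, 9 had an unadjusted p under 0.05 (limma). The share of all genes at that level is not given here, so nothing is read from this count. The genes that fell were Pcsk6, Smad7 and Drap1, and the median difference of the 39 was -0.00070, with 19 above 0. The 3 calls did not survive the loss of most arrays, which leaves 2 in a group: none of the 39 passed without control replicate 2, control replicate 3, KIAA1718 shRNA replicate 2 or KIAA1718 shRNA replicate 3 (limma). Only Smad7 passed without control replicate 1 and only Pcsk6 without KIAA1718 shRNA replicate 1. The differences themselves moved little with 1 array left out, from -0.63 to -0.51 for Pcsk6, -0.62 to -0.44 for Smad7 and -0.51 to -0.43 for Drap1.

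Among 7 other ligand genes tested none passed (limma; none at an unadjusted p under 0.05). The closest were Inha, the alpha subunit gene, at -0.25 (adjusted p = 0.439) and Tgfb3 at -0.23 (adjusted p = 0.585), both dim. Inha had signals of 6.99, 15.0 and 15.0 in controls and 10.6, 5.88 and 10.1 with the KIAA1718 shRNA. Gdf3, a Nodal-related ligand of embryonic stem cells, differed by -0.05 from signals of 399 ± 37.4 and 424 ± 16.6 (SD, n = 3). None of the 7 other receptor and co-receptor genes passed, and none had an unadjusted p under 0.05 (limma). The TGF-beta receptor genes Tgfbr1 at 0.20 (adjusted p = 0.331) and Tgfbr2 at -0.39 (adjusted p = 0.389) came closest. With the mean of its probe sets Tgfbr1 gave 0.03 (limma adjusted p = 0.910).

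Of 5 tested genes for antagonists and processing enzymes, 1 passed. Pcsk6 encodes PACE4, a convertase that cleaves the Nodal precursor. It fell from signals of 80.3, 74.7 and 106 to 60.2, 50.4 and 64.3, a difference of -0.57 ± 0.12 (limma adjusted p = 0.0261). The groups did not overlap. Ncln, the gene of nicalin, a membrane protein that restrains Nodal signalling, differed by -0.44 (adjusted p = 0.118), and Furin, the gene of a related convertase, by -0.09 (adjusted p = 0.747).

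Of 16 SMAD genes and SMAD regulators, all tested, 2 fell and none rose. Smad7, the inhibitory SMAD that is induced by the pathway, fell from 224, 256 and 358 to 216, 186 and 224, a difference of -0.51 ± 0.12 (limma adjusted p = 0.0435). Its groups all but touched in deposited signal, at 224.4 and 224.2, and its dimmer probe set gave -0.41 (adjusted p = 0.380). Drap1 encodes a co-repressor that binds FOXH1 and limits Nodal activity. It fell from 169, 168 and 233 to 136, 134 and 169, a difference of -0.47 ± 0.11 (limma adjusted p = 0.0396). Its groups overlapped slightly in deposited signal and not after normalization. The signal transducers Smad2, Smad3 and Smad4 differed by -0.18, -0.13 and 0.03, and Foxh1 itself by 0.27 (adjusted p of 0.383 or higher).

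Genes that respond to the pathway were sparsely measured. Of 11 listed 6 were tested. Smad7, counted above, fell, and the other 5 did not pass. Foxa2, an endoderm regulator, differed by -0.00070. Mixl1, a homeobox gene of the primitive streak, came closest, at 0.38 (limma adjusted p = 0.153), from dim signals of 6.36, 8.95 and 8.21 in controls and 12.2, 19.2 and 19.7 with the KIAA1718 shRNA. Eomes, Skil and Pmepa1 differed by 0.19, 0.17 and -0.28 (adjusted p of 0.372 or higher). The response genes thus had differences on both sides of 0, with a median of 0.08.

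**Figure D4:**
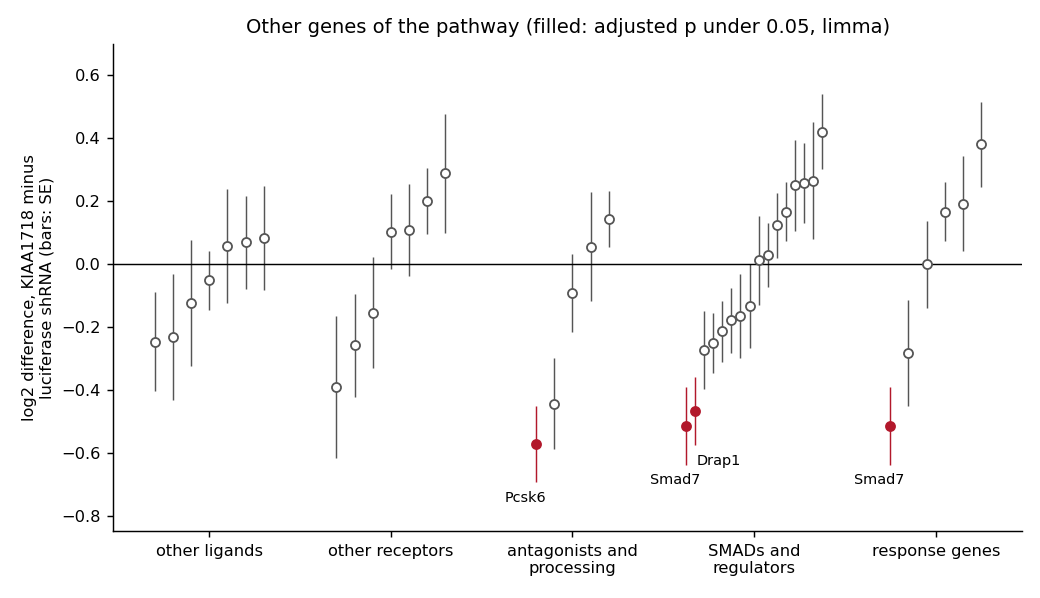
Difference between KIAA1718 and luciferase shRNA arrays (log2, with SE) for the other pathway genes in 5 lists; each point is the brightest tested probe set of a gene, filled where the limma adjusted p was under 0.05, and Smad7 and Skil stand in 2 lists. Pcsk6, Smad7 and Drap1 lie at -0.57, -0.51 and -0.47, and the remaining genes lie between -0.44 and 0.42.

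The genes whose values across the 6 arrays were most like those of Inhbb, among 12239 searched, were Abca1, the cholesterol exporter gene, Rhobtb1, Pla2g4a, the gene of a cytosolic phospholipase, Drap1 and Wdr5, the gene of a subunit of histone H3K4 methyltransferase complexes. Their Pearson correlations with Inhbb were 0.995 to 0.998 over 6 arrays. In normalized values all 5 had groups that did not overlap, as Inhbb did, so the group difference enters the correlation. In deposited signal the groups of Rhobtb1, Pla2g4a, Drap1 and Wdr5 overlapped. With the group means taken out the correlation was 0.865 to 0.990. Those values come from the same 6 arrays by which the 5 genes were picked, so they are no separate check of likeness. Their own differences were smaller, from -0.57 for Abca1 to -0.24 for Rhobtb1. Those of Rhobtb1 (limma adjusted p = 0.319) and Pla2g4a (limma adjusted p = 0.0714) did not pass. For Nodal the nearest were Vti1a, Slc10a7, Cluap1, Caskin2 and Ift172, at 0.967 to 0.987. Their differences, like that of Nodal, were near 0, from -0.07 to -0.0034.

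Across 14 other settings for processing, fit and arrays left out, the difference of the brightest Inhbb probe set stayed between -2.11 and -1.61 and passed in all 14. That of the dimmer Inhbb probe set stayed negative in all 14 and passed in 9. The settings reuse the arrays by which Inhbb was picked, so these calls are no separate check of its fall. Lefty1, Lefty2, Fst, Tdgf1 and the brightest Acvr2a probe set were above 0 in all 14, and Inhba and the brightest Acvr1b probe set below 0 in all 14. Inhba reached -0.0023 when 1 array was left out. Nodal and Acvr2b changed sign in 2 of the 14 each.

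**Figure D5:**
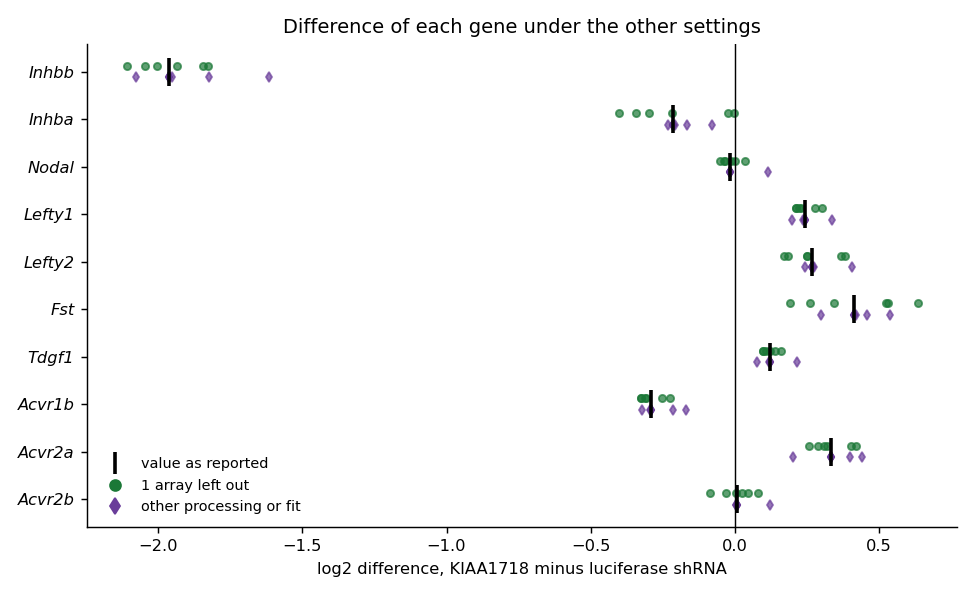
Difference between KIAA1718 and luciferase shRNA arrays (log2) of the brightest probe set of each gene as reported (black bar), with 1 array left out (circles) and under other processing or fits (diamonds). Inhbb stays between -2.11 and -1.61, and Nodal and Acvr2b fall on both sides of 0.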

How the data were processed

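RNA abundance was measured on 6 Affymetrix arrays, 3 with each shRNA; groups and replicate numbers come from the sample titles. The authors deposited linear signal intensity per probe set. The software was GCOS, per the submitters' processing notes, which name no algorithm or scaling target. Here 16 was added, values were taken to log2 and quantile normalized over 45037 probe sets (64 controls left out), and the 40% with the lowest mean were left out, which kept 27022. Groups were compared by limma 3.58.1 under R 4.3.3 (trend, two-sided, Benjamini-Hochberg, threshold 0.05), after the script was tested on simulated data; the number of arrays limits the precision.

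Each gene was read by its brightest probe set with 1 symbol. Symbols came from the platform annotation and were compared with RefSeq gene numbers (GRCm38.p6); 34945 probe sets had 1 symbol, 932 several and 9160 are unnamed here. The members, gene lists, named genes and tests were chosen with earlier results of these data known. Besides the 10 genes, the text names in each of the 5 lists up to 4 genes that passed, or, where under 2 passed, the 2 of lowest p; Gdf3, Furin, Smad2, Smad3, Smad4, Foxh1, Eomes, Foxa2, Skil and Pmepa1 were added after their values were seen. The 5 genes most like Inhbb and Nodal were ranked by Pearson correlation, with RIKEN clones and numbered gene models skipped.

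Replicate numbers were treated as pairs only in the block alternative and where differences between arrays of equal number are given. Deviations from group means correlated at 0.204, 0.125 and 0.132 between arrays of equal number, each over 0.1. No label gives the numbers this meaning, so the pairing rests on the data. The fits leave it out, and values with it as a block are given where it changes a call or a count by more than 1.5 times. Alternatives were unscaled or trimmed-mean scaled arrays, other constants and filters, the block, no trend, each array left out and, for other pathway genes, the mean of a gene's probe sets.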

Additional observations from a re-analysis of the deposited data

How the results depend on the processing

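Counts of calls depended on the setting. Of 27022 probe sets, 991 passed; 576 passed with no scaling between arrays, 290 with no filter on low values, 634 with no intensity trend and 1684 with replicate number as a block, and leaving out 1 array gave 262 to 829 (453 without control replicate 2, 262 without control replicate 3, 612, 482 and 297 without KIAA1718 shRNA replicate 1, 2 and 3). Of the 10 genes, 1 passed in the reported setting and in 13 of 14 alternatives, and 2 with replicate number as a block; leaving out 1 array gave 1 each time. Of the 39 other pathway genes 3 passed (limma). The count was 0 with no scaling between arrays, 0 with no filter on low values and 1 with no intensity trend, and leaving out 1 array gave 0 to 1. In the reported setting 9 of the 39 had an unadjusted p under 0.05 (limma), with no share of all genes to set beside it. Leaving out an array, which leaves 2 in its group, or keeping dim probe sets means fewer samples or more tests; the cause was otherwise not tested. No scaling moved the median difference of all probe sets from 0.00260 to 0.10, and moved Nodal to 0.12, Lefty1 to 0.34, Tdgf1 to 0.21 and Acvr1b to -0.17. The block changed no other call of a gene named here except that of the dimmer Fst probe set, which passed with it, and those of the markers given above.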
